A study of Homo sapiens with 4 samples.

Results

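Many human protein-coding genes can be transcribed from more than one start site. In the cells carrying the wild type DNMT3A-DNMT3L construct, 824 of the 12864 listed new methylation peaks lay at such alternative starts, away from the canonical start of any protein-coding gene. A peak was taken as a member if it lay on chromosomes 1 to 22, if its nearest edge was more than 1000 bp from every canonical coding start, and if its summit lay within 500 bp of the start of another transcript of a protein-coding gene. Transcripts were those of GENCODE release 44 lifted to hg19, which mark a canonical transcript for all but 251 of 19229 genes, where the one with the longest coding sequence was taken. Chromosomes 1 to 22 held 12667 of the peaks. Of these, 8554 lay within 1000 bp of a canonical start and 3289 fell in neither class. No measured value of a peak other than its position entered the choice.

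The human embryonic kidney cell line HEK293 was transiently co-transfected with plasmids for dCas9-10XSunTag (dCS), for Ab-3A3L in its wild type form, and for an sgRNA against the CpG island of ISG15. Ab-3A3L is a single-chain antibody, which binds the SunTag, fused to the catalytic domain of DNMT3A and the C-terminal part of DNMT3L. Cells carrying all 3 plasmids were sorted 3 days later, and their sheared genomic DNA was pulled down with GST-MBD2 and sequenced (MBD-seq). The untreated cells and those with the K844E or R887E mutant of Ab-3A3L, 1 library each, were not analysed here. No value below can therefore be set against replicates, and no test between conditions was possible. The paper counts the listed peaks as new relative to untreated cells.

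A CpG island is a stretch rich in CpG dinucleotides that often marks a promoter. Islands were defined here by sequence alone, and their methylation before transfection was not checked. Genes with alternative promoters use them to change the 5′ end of the transcript, its tissue of expression or the first residues of the protein, and methylation of one promoter can go along with use of another. DNMT3A is a de novo DNA methyltransferase that DNMT3L stimulates, and the methyl-CpG binding domain of MBD2 enriches DNA with many methylated CpGs, so that CpG-poor regions give little signal whatever their methylation.

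Sequences next to alternative starts are shown as examples of DNA inside the peaks. For 6 members at genes known for alternative promoters, the 120 bases directly upstream of the alternative start are given 5′ to 3′ on the strand of the gene, from the hg19 sequence, with each CpG in capitals. The regions are chr1:39875055-39875174 (plus strand, MACF1), chr12:121975522-121975641 (minus, KDM2B), chr10:62493249-62493368 (minus, ANK3), chr2:74229720-74229839 (plus, TET3), chr4:109087954-109088073 (minus, LEF1) and chr11:64410959-64411078 (minus, NRXN2).
MACF1-229: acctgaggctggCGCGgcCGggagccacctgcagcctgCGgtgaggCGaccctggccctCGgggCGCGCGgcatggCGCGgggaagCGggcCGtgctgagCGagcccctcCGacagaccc
KDM2B-216: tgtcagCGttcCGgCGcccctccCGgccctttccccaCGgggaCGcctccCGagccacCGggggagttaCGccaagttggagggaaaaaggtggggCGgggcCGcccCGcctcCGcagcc
ANK3-205: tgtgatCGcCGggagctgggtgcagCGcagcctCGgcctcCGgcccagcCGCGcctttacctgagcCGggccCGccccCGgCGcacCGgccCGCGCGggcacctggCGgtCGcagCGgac
TET3-201: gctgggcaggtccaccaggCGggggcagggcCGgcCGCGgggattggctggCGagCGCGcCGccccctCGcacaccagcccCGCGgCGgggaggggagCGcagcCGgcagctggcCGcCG
LEF1-221: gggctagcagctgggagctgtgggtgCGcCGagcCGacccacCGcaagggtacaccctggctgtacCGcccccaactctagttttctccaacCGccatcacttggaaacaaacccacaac
NRXN2-213: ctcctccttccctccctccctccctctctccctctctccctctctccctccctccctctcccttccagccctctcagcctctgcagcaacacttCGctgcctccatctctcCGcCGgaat
Each stretch lies inside its peak, but only for MACF1 and ANK3 does it hold the summit. The ANK3 stretch holds 18 CpGs, the most of the 6, and its peak had a fold of 12.4. The TET3 stretch has 16, and that of MACF1, whose peak had the highest fold of the 6 at 17.1, has 15. NRXN2 has 3 CpGs in these bases, all near the start, after a run of cytosines and thymines. Its whole peak held 68 CpGs and was listed with a fold of 8.32 and its summit 255 bp upstream of the start.

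The fold enrichment in the authors' list, which is the number of fragments at the summit over a background from a library that the sources used here do not name, had a median of 7.07 over the 824 members (95% order-statistic interval 6.82 to 7.34, quartiles 4.97 and 9.93, range 1.70 to 32.3). The median was 8.07 at canonical starts and 6.13 in the peaks of neither class. Folds of 10 or more belonged to 198 members, or 24.03%, against 25.5% of all new peaks on these chromosomes, so that the members had no higher share than the list as a whole. The median −log10 of the q-value was 9.61. The number of summit fragments, worked out from each fold and its p-value, was 18 in the median (7 to 75), against 17 at canonical starts and 19 in neither class. The background rates differed more. The median rate was 1.18 fragments at members, 0.737 at canonical starts and 1.88 in neither class, and 15.5%, 7.18% and 23.5% of the peaks had a rate of at least 5. By both measures the median of the members lay between those of the other classes, 1 fragment from either by fragments at the summit. The lowest rate that the list uses, 0.611, applied to 27.2% of members.

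**Figure D1:**
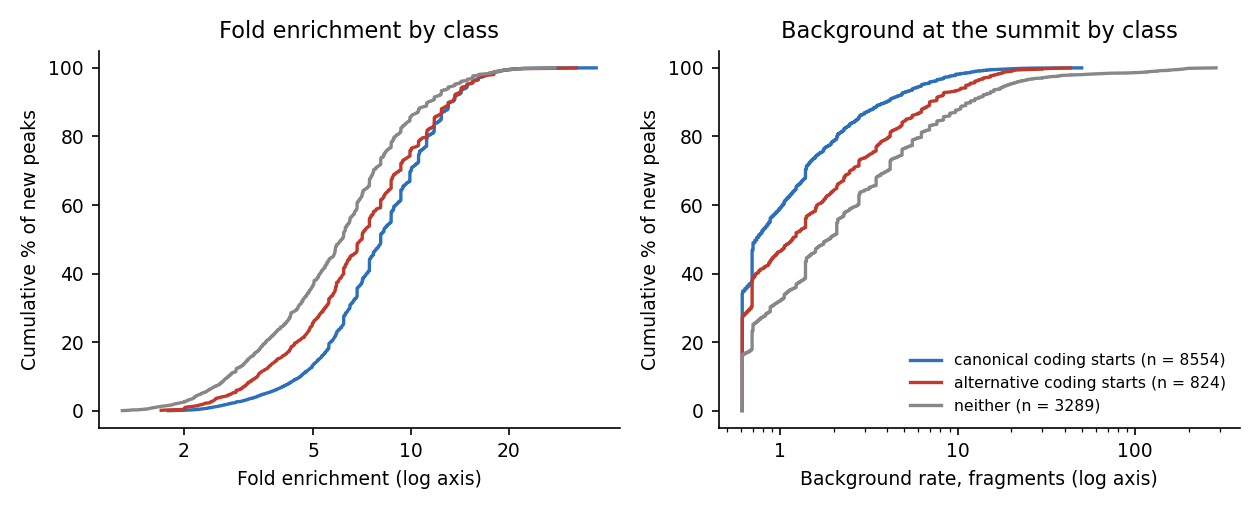
Cumulative percent of new peaks by fold enrichment (left, log axis) and by recovered background rate in fragments at the summit (right, log axis), for new peaks at canonical coding starts (blue), at alternative coding starts (red) and in neither class (grey). The red curve runs between the others for most of both panels, at medians of 7.07 for the fold and 1.18 fragments for the background.

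The peaks at alternative starts were CpG-rich, as most peaks of the list were. A CpG island was overlapped by 732 members, or 88.8% (95% exact binomial interval 86.5% to 90.9%, counting error only), against 89.2% of all new peaks, 98.4% of those at canonical starts and 65.5% of those in neither class. Members had a median width of 464 bp, a GC content of 69.7% and 9.66 CpGs per 100 bp, against 574 bp and 10.6 CpGs per 100 bp at canonical starts. The 92 members outside islands had a median fold of 5.33 and a background rate of 2.78, against 7.32 and 1.04 for the 732 in islands.

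Eligible alternative starts, merged within 500 bp, numbered 44914 in 13014 genes, and 826 of them, or 1.84%, had a member, some members reaching more than 1 start. Canonical starts had a summit within 500 bp in 6699 of 19229 cases, or 34.8%. This share counts any new peak, while the 1.84% counts members only. The gap went along with CpG content, since only 2538 of the alternative starts, or 5.65%, lay in an island. Of these island starts, 602 had a member, or 23.7%, against 0.529% of the alternative starts outside islands. With any new peak counted, 761 of the 2538 island alternative starts, or 29.98%, had one. The share of canonical starts in islands with a summit of any new peak was 50.9%. What the annotation placed at the start also went along with the share. Among island starts with a coding transcript whose 5′ end is complete, 461 of 1364 had a member, or 33.8%, and among the other island starts 141 of 1174, or 12.0%.

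Alternative and canonical starts of like CpG content were then set side by side. A peak that reaches an alternative start but comes within 1000 bp of a canonical one is no member. For this reason any new peak with its summit within 500 bp was counted for both. An alternative start merged from several counted if any of these lay within 500 bp of a summit. Each canonical start is 1 position, so merged starts had more chances to be counted. With 80 to 99 CpGs within 500 bp, 54.8% of the 303 alternative starts with a 5′-complete coding transcript had a summit (49.0% to 60.5%), against 63.6% of canonical starts (62.0% to 65.3%). With 60 to 79 CpGs the shares were 38.4% (34.2% to 42.8%) and 43.5% (42.0% to 45.1%). With 100 or more they were 59.0% (53.0% to 64.8%) and 61.6% (59.985% to 63.1%), and with 40 to 59 they were 18.7% (16.0% to 21.6%) and 20.02% (18.5% to 21.6%). The alternative share was the lower in each of these classes of 40 or more CpGs, and the intervals overlapped in all but that of 80 to 99. Below 40 CpGs the shares were small and the order varied. With 30 to 39 CpGs they were 4.94% (3.47% to 6.81%) for these alternative starts and 4.04% (2.76% to 5.69%) for canonical ones. With 20 to 29 they were 1.49% (0.949% to 2.23%) and 0.839% (0.384% to 1.59%). With 10 to 19 they were 0.0917% (0.0189% to 0.268%) and 0.151% (0.0312% to 0.441%). Overlap of intervals does not show that shares are alike. Over all eligible alternative starts, 5′-complete or not, the shares with any new peak were lower in the classes of 40 or more CpGs. They were 9.63% with 40 to 59 CpGs, 29.9% with 60 to 79, 45.6% with 80 to 99 and 55.4% with 100 or more. Among these classes, their intervals overlapped those of canonical starts only with 100 or more CpGs (50.2% to 60.5%). None of 16086 alternative starts with fewer than 10 CpGs had a new peak, nor had any of 1768 such canonical starts.

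By the rule, every member summit lay within 500 bp of an alternative start. Where several starts were in reach, the nearest of the preferred kind was taken, while the canonical start of a gene is fixed. This choice by itself shortens the distances of the members. The median position was 58 bp downstream of the start, 60.1% of the summits lay downstream, and the start itself was inside the peak in 65.3% of members. For the 6449 peaks with a summit within 500 bp of a canonical start, the median was 144 bp downstream, and 73.2% lay downstream. Between 100 bp upstream and 100 bp downstream lay 126 and 139 member summits, the highest numbers of any 100 bp window. At 92 members, or 11.2%, the start of a long non-coding RNA also lay within 500 bp of the summit, and 7 members had a near-identical copy elsewhere in the genome.

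Most of the members lay at an annotated start downstream of the canonical one. The same share over all eligible alternative starts was not computed, so it cannot be called particular to the members. Transcription from these starts was not measured. The alternative start was downstream of the canonical start in 532 members, or 64.6%, at a median distance of 12566 bp, and upstream in 292, or 35.4%, at 21646.5 bp. The summit was in an intron of the canonical transcript in 407, in an exon in 121 and past its end in 4. Members upstream of the canonical start had a median fold of 7.81 and overlapped an island in 95.2%, against 6.69 and 85.3% for those downstream. Their background rates were 0.922 and 1.39. In 247 members the start was within 5000 bp of the canonical start, and in 247 it was more than 50000 bp away.

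For each member 1 main transcript was taken, a coding transcript with a complete 5′ end before any other, and then the one with the nearest start. It was of the protein-coding type in 623 members (75.6%), a coding gene's transcript with no defined coding sequence in 103, a retained intron in 82, a target of nonsense-mediated decay in 13 and still to be tested by experiment in 3. The 595 members with a 5′-complete coding transcript at the start had a median fold of 7.45, an island share of 93.3% and a background rate of 0.948. The 229 without one had 5.90, 77.3% and 2.08. The main transcript began its coding sequence at another position than the canonical one in 387 members (47.0%), at the same position in 215, and had no coding sequence in 188. Of the 387, the coding start was farther downstream in 293 and upstream in 94. The coding sequence was marked as incomplete at its 3′ end in 124 of the 387. Of the other 263, 220 were shorter than the canonical coding sequence, and the median length was 86.4% of it.

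The members with the highest fold were a mixed set of genes. The 10 highest ranged from 18.3 to 32.3, with 29 to 51 fragments at the summit and background rates of 0.611 to 1.16, and all of these 10 overlapped an island. The highest lay at PDE4DIP, a scaffold protein of the Golgi and centrosome, from 145075324 to 145076199 on chromosome 1, with its summit 128 bp downstream of the start of PDE4DIP-236 and 51 fragments. The annotated start of the pseudogene PDE4DIPP2, at 145075862, lies in the same peak, and the signal of the genes cannot be told apart. The second, with a fold of 27.9, was 67130 bp upstream of the canonical start of DNAH5, a dynein heavy chain of motile cilia, at a start whose coding sequence encodes 4609 residues against 4624. NFATC2, a transcription factor of T cell activation, had a fold of 18.3 at a start 20112 bp upstream. CYP2E1, a liver cytochrome P450 that oxidises ethanol, had 19.9 at a start 6957 bp upstream that keeps the canonical coding sequence of 493 residues. NGFR, the low-affinity neurotrophin receptor, had 19.2 at a start 2098 bp downstream. It lay in the same island as the canonical start, which itself had a peak with a fold of 19.5. The start of another annotated gene, still to be tested by experiment, lies in the peak at the alternative start.

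The other 5 of the 10 highest had a main transcript without a coding sequence. AOPEP, an aminopeptidase, had a fold of 20.5 in a peak of 1518 bp and 188 CpGs, 278281 bp into the gene. LMO2, a bridging factor of blood-forming transcription complexes, had 20.4 and 43 fragments, and SHROOM3, a regulator of apical constriction in epithelia, had 18.6. PDZD2, a multi-PDZ protein, had 19.7 at an internal start and 1.95 at its canonical promoter. SMUG1, a uracil-DNA glycosylase of base excision repair, had 18.99 at a peak past the end of its canonical transcript.

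Of 86 genes fixed in a list as known for alternative promoters and with an eligible alternative start, 33 had a member, or 38.4% (28.1% to 49.5%), against 5.56% of all genes with such a start. Among genes with an island alternative start the shares were 27 of 57, or 47.4%, and 545 of 2021, or 27.0%. The 44 members at these genes had a median fold of 7.45, against 7.07 for all members, and ranged from 2.02 to 17.1. The list was drawn up with earlier results of these data known and is described by its counts only.

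The highest fold of that list was at MACF1, one of its cytoskeletal genes. This giant linker of microtubules and actin had 3 members. The internal start of MACF1-229, 204808 bp into the gene, had a fold of 17.1 with 28 fragments in a peak of 1261 bp and 143 CpGs. A start 99284 bp upstream had 16.1 with 25 fragments, and the third, at 39547038 to 39547596 on chromosome 1, had 2.48 with 29 fragments over a background of 11.1. The 3 members had similar numbers of fragments and very different backgrounds. No new peak lay at the canonical promoter of MACF1. DST, the related linker dystonin, had a fold of 11.8 at a start 111615 bp downstream and 11.2 at its canonical promoter. The start of the long non-coding RNA DST-AS1 lies in the peak with the fold of 11.8. ANK3, the ankyrin of the axon initial segment, had 12.4 at the start of ANK3-205, where the summit fell 1 bp upstream of the start. ANK1, the ankyrin of red blood cells, had 8.83 at an internal start, and TPM1, a tropomyosin, had 12.4 at the internal start of a form of 248 residues in place of 284, with 13.7 at the canonical promoter.

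Of the chromatin regulators in the list, KDM2B, a histone demethylase that carries a CpG-binding CXXC domain, had 2 neighbouring members with folds of 16.1 and 9.50, and a fold of 5.31 at its canonical promoter. The stronger of these members was 1567 bp wide with 153 CpGs and overlapped an island, and the weaker held 31 CpGs and overlapped none. TET3, an enzyme that oxidises 5-methylcytosine, had 11.2 at the start of TET3-201, whose coding sequence encodes 1702 residues against 1795, and no new peak at the canonical promoter. In the broader list of chromatin modifiers, 13 of 141 genes had a member, or 9.22% (5.001% to 15.3%), against 5.56% of all genes with an eligible start. Among genes with an island alternative start it was 9 of 37, or 24.3%, against 27.0% of all. Their 15 members had a median fold of 10.6, against 7.07 for all members. ARID1B, CHD7, HDAC7, HDAC9 and PRDM2 were among the 13.

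Receptors and nuclear factors of developmental signalling also had members. PTCH1, the receptor of Hedgehog ligands, had folds of 14.8 and 3.04, the second with 33 fragments over a background of 10.2. The start of a long non-coding RNA lies in the peak with the fold of 14.8. Of the nuclear factors of Wnt signalling, TCF7L2 had a fold of 14.2 at a start 176601 bp downstream, for a form of 282 residues against 619. LEF1 had 9.93 at a start 2135 bp downstream and 6.91 at its canonical promoter. RUNX1, a regulator of blood formation known for a distal and a proximal promoter, had members with folds of 8.69 and 8.07, at starts 162119 and 160612 bp downstream of the canonical start, with 13 and 12 fragments. NR2F2, a nuclear receptor, had 7.26 at an internal start of a form of 261 residues against 414. The annotated start of the microRNA gene MIR1469 lies in that peak as well. BDNF, a neurotrophin with several untranslated first exons, had 13.4 at a start 19292 bp upstream that keeps the coding sequence of 247 residues, and 11.2 at the canonical promoter.

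Among enzymes and synaptic proteins, PDE4D, a cAMP phosphodiesterase with many promoters, had a fold of 14.2 at a start 854214 bp downstream. A long non-coding RNA also has its start in this peak, and the signal of the genes cannot be told apart. ACACA, acetyl-CoA carboxylase, had 7.52. DLC1, a tumour suppressor lost in liver cancer, had 7.45 with 11 fragments at the internal start of a form of 1091 residues against 1528. GRB10, an imprinted adaptor of insulin receptor signalling, had 9.19 at a start 10536 bp upstream, in a peak with 16.1 CpGs per 100 bp. NRXN2 and NRXN3, presynaptic adhesion proteins whose short beta forms start inside the gene, had folds of 8.32 and 7.45 at internal starts. NRXN2 had a second member with 2.02, over a background of 17.3, and NRXN3 had no new peak at its canonical promoter. LMNA, which encodes the A-type lamins, had 7.45 at a start 8013 bp upstream of the canonical one and 9.31 at the canonical promoter.

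**Figure D2:**
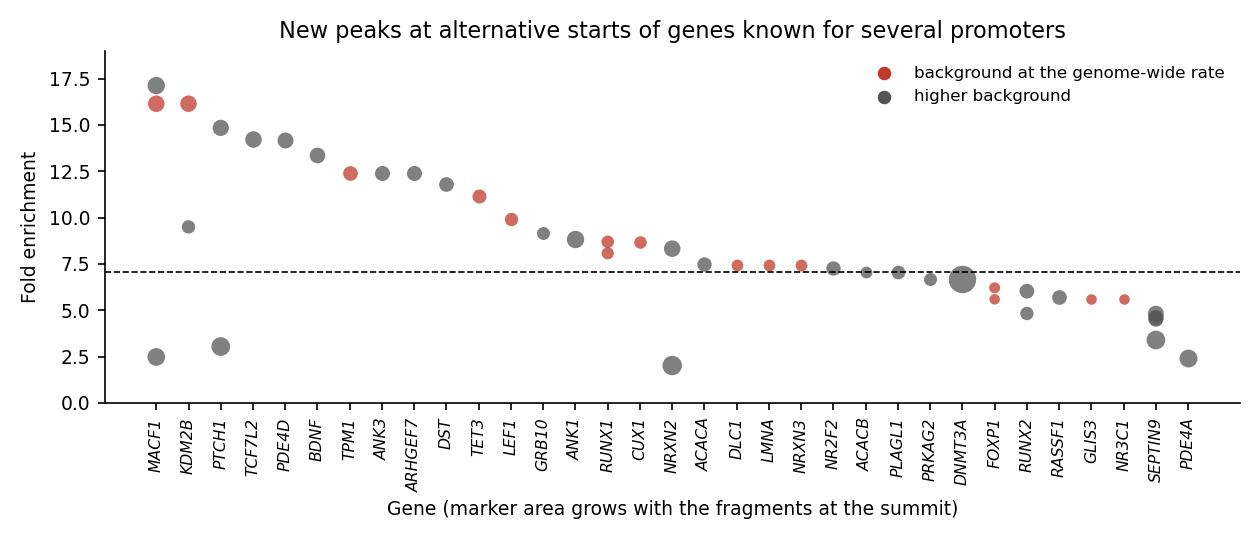
Fold enrichment (vertical axis) of the 44 members at the 33 genes of the list of known alternative promoters, ordered by the highest member of each gene, with marker area growing with the fragments at the summit. Red points have the genome-wide background rate of 0.611, grey points a higher one, and the dashed line is the median of all members, 7.07. MACF1 spans from 2.48 to 17.1, and the largest marker is the 75 fragments of DNMT3A.

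The members whose peaks lay farthest from any canonical coding start were in very long genes expressed in neurons. PTPRD, a receptor tyrosine phosphatase of neurons, had a fold of 9.96 at a start 1755226 bp downstream. RBFOX1, a neuronal splicing factor, had 5.44 at a start 1284258 bp downstream, outside islands. NRXN3, described above, had its start 1108966 bp downstream. The nearest canonical coding start of any gene was 1057567, 1268651 and 931945 bp from the edge of these 3 peaks, in the same order.

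By other gene groups, transcription factors had a member in 36 of 208 genes with an eligible start, or 17.3% (12.4% to 23.1%), with a median fold of 6.56. Cytoskeletal and scaffold genes had one in 23 of 145, or 15.9% (10.3% to 22.8%), with a median of 8.13. Adhesion and guidance genes had one in 15 of 169 (8.88%), and kinases, phosphatases and other signalling enzymes 26 of 307 (8.47%). Zinc finger and BTB genes had 12 of 372, or 3.23% (1.68% to 5.57%), the lowest share of these lists. Of 25 imprinted genes with an eligible start, CDKN1C, GRB10 and PLAGL1 had a member. The background for all of these is the 5.56% of all genes with an eligible start. The groups also differed in how many of their genes have an island alternative start: 104 of the 208 transcription factor genes and 62 of the 372 zinc finger genes. Among genes with such a start, 30.8% and 14.5% had a member there, against 27.0% of all. For cytoskeletal and scaffold genes it was 18 of 41, or 43.9%. For adhesion and guidance genes it was 9 of 37, or 24.3%, and for the signalling enzymes 16 of 62, or 25.8%. Of 9 such imprinted genes, 3 had a member there. The lists were made by symbol, so a few genes such as GATAD2A, RUNX1T1, PDE4DIP, MAPK8IP1 and ZFP36L1 entered a group by name that they do not share by function.

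The 824 members fell in 724 genes, of which 642 had 1 member, 67 had 2, 12 had 3 and 3 had 4. With 4 each, TFAP2A, a transcription factor of neural crest and epidermis, ranged in fold from 3.404 to 11.8, PLEC, the cytolinker plectin, from 3.81 to 7.09, and SEPTIN9, a filament-forming GTPase, from 3.39 to 4.81. SEPTIN9 had 20 to 33 fragments at its members, over background rates of 3.65 to 9.02. Chromosome 19 had the highest ratio of members to new peaks, 67 of 629 or 10.7% (8.35% to 13.3%). That interval overlapped those of other chromosomes, such as chromosome 4 with 8.61% (6.38% to 11.3%). The eligible alternative starts of each chromosome were not set beside these ratios. Chromosome 1 had the most members, 78 of 1319.

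The canonical promoter of the same gene, taken as 1000 bp on either side of its start, also had a new peak in 393 of the 724 genes, or 54.3% (50.6% to 58.0%). The share was 43.2% over all genes and 49.4% over genes with an eligible alternative start. With the canonical start in an island it was 72.3% in the member genes (350 of 484). It was 64.0% in genes with an eligible alternative start and 61.9% in all genes. With the canonical start outside islands it was 17.9% in the member genes (43 of 240) and 7.15% in all genes. The latter includes genes without an eligible alternative start. In the 393 genes with both, the strongest member had the higher fold in 165, and the medians were 7.45 for members and 8.69 for canonical promoters. Across these genes, which share 1 library and differ in CpG content, the rank correlation of the folds (Spearman) was 0.336 and Pearson's r 0.293.

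For 798 genes the canonical start and at least 1 alternative start with a 5′-complete coding transcript both lay in islands, and a summit within 500 bp was counted for each. Both kinds of start had a new peak in 196 genes, or 24.6% (21.6% to 27.7%), the canonical start alone in 197, or 24.7% (21.7% to 27.8%), the alternative alone in 170, or 21.3% (18.5% to 24.3%), and neither in 235, or 29.4% (26.3% to 32.7%). An alternative peak was present in 49.9% of the genes with a canonical peak (44.8% to 54.9%) and in 42.0% of those without (37.1% to 46.9%). The intervals overlapped, which does not show that the shares are alike, and the difference was not tested. A gene with several such alternative starts had more than 1 chance to be counted.

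**Figure D3:**
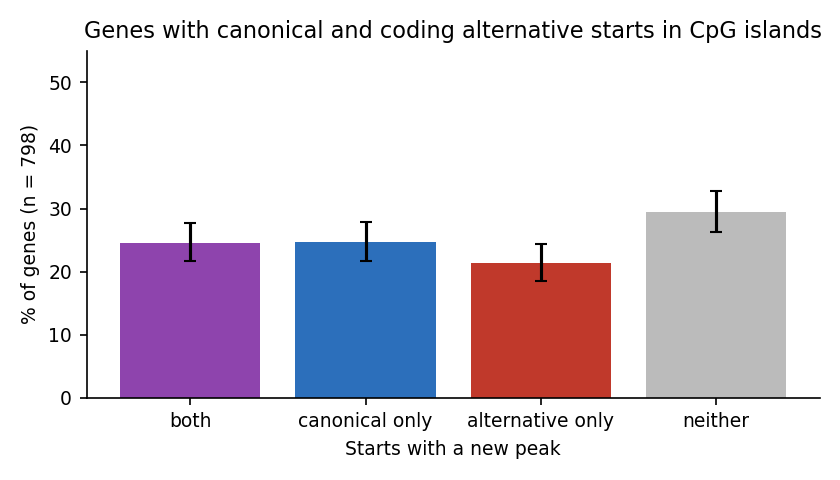
Percent of the 798 genes with the canonical start and an alternative start with a 5′-complete coding transcript in CpG islands, by which start had a new peak summit within 500 bp. Error bars are 95% exact binomial intervals. The classes with a peak lie between 21.3% and 24.7%, with overlapping intervals.

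Some members had many fragments over a high background, and so a low fold. The most fragments, 75, were found at DNMT3A, from 25464330 to 25464683 on chromosome 2, with a background rate of 10.4, a fold of 6.66 and 13 CpGs, or 3.67 per 100 bp. This peak overlapped no island, and its summit lay in exon 17 of the 23 exons of the canonical transcript, which runs from 25464431 to 25464576. It was the only new peak within the body of DNMT3A, while the canonical promoter, which reaches upstream of the gene, had another with a fold of 5.73. DNMT3L held none. The transfected Ab-3A3L plasmid carries coding sequence of the DNMT3A catalytic domain, and fragments from the plasmid and from the gene cannot be told apart in a list of peaks. The next were EXD3 with 74 fragments, ADAMTS13, the protease of von Willebrand factor, with 68, PKMYT1, a kinase that inhibits CDK1, with 64, and PNPLA7 with 63. Their background rates were 18.0 to 43.0 and their folds 1.70 to 3.62.

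Promoter motifs were counted from 250 bases before to 50 after the start, on both strands, over the 595 members with a 5′-complete coding transcript. The GC box GGGCGG occurred in 75.1%, against 83.7% of canonical starts with a new peak summit, 61.4% of all canonical starts and 65.4% of 798 island alternative starts with a 5′-complete coding transcript and no new peak. CCAAT occurred in 20.7%, 31.5%, 35.7% and 23.4% in the same order, and TATAAA in 5.04%, 4.11%, 9.81% and 3.38%. The ETS sequence CCGGAAG was found in 8.57%, 15.9%, 14.1% and 8.27%. The cAMP response element TGACGTCA was found in 0.672%, 3.21%, 2.70% and 2.63%, and the palindromic NRF1 consensus in 0.672%, 2.66%, 1.71% and 1.25%. The E-box CACGTG was found in 7.90%, 10.5%, 8.64% and 10.3%. For these 3 motifs and for CCAAT the share was lowest in the members, which for the cAMP response element and NRF1 rests on 4 members each. For the E-box the interval of the members (5.86% to 10.4%) overlapped those of all the other sets. For CCAAT and CCGGAAG the members lay closer to the island alternative starts without a peak than to the canonical starts with one. A match of letters is no evidence of binding.

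At the limits of the rule, the members nearest to 500 bp from an alternative start were EPOR, with a fold of 11.5, and SOHLH1, with 3.82, both at 494 bp. HIVEP3 (12.4) and SAMD11 (5.67) missed it at 501 bp. Of the members closest to a canonical start, TMC4 (4.24) lay at 1002 bp and NOTUM (4.01) at 1005 bp, while the peaks at C6orf62 (9.31) and PRR16 (8.69) missed the rule at 997 and 994 bp.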

How the data were processed

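The series holds 1 MBD-seq library for each of 4 conditions of HEK293 cells. Only the new peaks listed for wild type Ab-3A3L were used. Per the labels and the methods, the authors mapped reads to hg19 with Bowtie2, and the submitters' processing notes also name FastQC, deepTools and MACS2. Settings of the peak caller are not given in the sources used here. The list has 10 columns in the MACS2 peak layout. The deposited score went unused. As deposited, the fold is a ratio to a background. The paper counts the peaks as new relative to untreated cells, but which library gave that background is not given in the sources used here. In addition, the deposited −log10 columns give a p-value and a q-value per peak. The smallest −log10 q was 2.00. The authors' other column gives the summit as a distance from the start of the peak.

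For each peak, the whole number k of summit fragments and the rate of the background were solved for from 2 relations: the fold equals (k + 1)/(rate + 1), and the p-value is the upper Poisson tail beyond k at that rate. The solution met the listed −log10 p within 0.000358 in all peaks. That MACS2 formulas apply is an inference from these values. The methods give an average read number for all samples, but the list holds no depth of this library, and precision rests on 18 summit fragments in the median peak, without replicates. Binomial intervals cover counting error only.

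Peaks were placed on the GRCh37 sequence and on GENCODE 44 as lifted to that build. For 251 of 19229 genes without a marked canonical transcript, the one with the longest coding sequence was used. CpG islands were rebuilt from unmasked sequence (CpG +17, other base -1, over 200 bp, at least 50% GC, observed/expected over 0.6), giving 49215. Near-identical copies were found with blastn 2.17.0 (98% identity over 80% of the length). Genes named are the 10 members with the highest fold, the 5 others with the most fragments, up to 25 members by fold from a list of genes known for alternative promoters, the 3 farthest from canonical starts, those at the limits of the rule, and those with 4 members or among the lists' genes, chosen after their values were seen. The members and gene lists were chosen with earlier results of these data known. The result of 1 gene list is not reported here. No p-value was computed across peaks or genes. The steps were tested on simulated data, with 1500 of 1500 fragment numbers, 98 of 98 islands and 200 of 200 peak assignments recovered. The software was matplotlib 3.10.9, numba 0.67.0, scipy 1.17.1, pandas 2.3.3 and numpy 2.4.6 under Python 3.11.15.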

Additional observations from a re-analysis of the deposited data

How the results depend on the processing

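Of 73 recomputed values over 10 planned settings and 2 chosen after seeing the data, 42 moved by less than the main interval (for counts, under 1.5 times) and 31 by more. Keeping only peaks with at least the list's median fold left 381 members, with an island overlap of 95.5%, a median fold of 10.3, a background rate of 0.6496, a canonical peak in 44.6% of genes, and a member at 0.848% of eligible and 11.6% of island alternative starts. Keeping only a −log10 q of at least 10 left 386 members, with 94.6%, 10.1, 0.694, 41.3%, 0.868% and 11.7% in the same order. With the summit within 250 bp of the start, 1.28% of eligible and 17.8% of island starts had a member. Within 1000 bp these shares were 2.49% and 28.3%, and over 2000 bp from canonical starts 1.68% and 25.8%. With the distance from canonical starts taken from the summit they were 2.08% and 27.4%, with a canonical peak in 61.5% of genes. With transcripts of the protein-coding type alone they were 3.82% and 28.8%, with an island overlap of 91.6% and a median fold of 7.45, and without 5′-incomplete transcripts 2.08% and 25.6%. Stricter islands gave an island overlap of 72.9% and a member at 29.1% of island starts. The settings that change the starts counted or the peaks kept alter these shares by their construction. Leaving out the near-identical copies or the genes without a marked canonical transcript, settings chosen after seeing the data, gave 817 and 825 members and moved no value beyond the main interval. Under the stricter peak thresholds a canonical peak also had to pass the threshold. No paired analysis was possible because each condition had 1 library and the list covers 1 condition. The number of fragments limits single members, and 11 fragments gave a fold of 7.45 at the lowest background rate.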
